A study of Homo sapiens with 4 samples.

Results

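The clustered histone genes are the protein-coding rows of the deposited count table whose names begin with HIST1H to HIST4H, the older symbols that give the gene cluster and the histone class. The rule found 71 of the 58336 genes in the table: 6 of linker histone H1, 17 of H2A, 18 of H2B, 15 of H3 and 15 of H4. They were read in 4 RNA sequencing libraries, each from total RNA of a gastric cancer cell line labelled wild type (WT). AGS, an epithelial gastric adenocarcinoma line, gave 1 control library and 1 library after 1 day in 10 nM estradiol, the main oestrogen. HGC-27, an undifferentiated gastric carcinoma line, gave the same pair. The labels call the untreated cells control and name no vehicle. Each line stands for a single established culture model, and the labels do not say whether the libraries came from separate cultures. P-values therefore rest on the spread of these 4 libraries around a model of line plus treatment, and that spread may be technical. With 1 library per line and condition, an estradiol response that differed between the lines would count as spread. In the edgeR fit the spread was mostly estimated across genes, with 396.9 prior degrees of freedom against 1 residual.

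H2A, H2B, H3 and H4 form the protein core around which DNA is wound, and H1 binds the linker DNA between the cores. Most of these proteins are made from the clustered genes during S phase, when newly copied DNA must be packed. Messages of the clustered genes normally carry no poly(A) tail: they end just past a short stem-loop that the protein SLBP binds, and the U7 small nuclear ribonucleoprotein and a cleavage complex cut them there. Some clustered genes also give polyadenylated messages that run past the stem-loop. The labels name an NEB library method and do not say how RNA was selected.

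The stem-loop is shown first because it marks where these messages normally end. An exactly paired 16-base stem-loop, with a 6-base stem beginning GG and a 4-base loop beginning TT, was found in the annotated transcripts of 30 of the 71 genes (42.3%). All 30 were among the 38 genes whose annotation holds any bases beyond the coding part. The same search found it in 203 of 58676 genes of the whole annotation (0.346%). There were 4 forms, written here as DNA from GRCh38 with the stem in capitals. Each is given with the number of genes that hold it.
17 genes of H2A, H2B and H3: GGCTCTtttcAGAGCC
5 genes of H2B and H3: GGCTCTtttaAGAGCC
5 genes of H4: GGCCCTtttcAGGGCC
3 genes of H4: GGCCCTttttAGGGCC
All 8 H4 stem-loops had the stem GGCCCT, and all 6 of H2A, 11 of H2B and 5 of H3 had GGCTCT. None was found for H1 under this strict pairing. For HIST1H1C, HIST1H1B, HIST1H1D and HIST1H1A the annotation held the coding part only. The stretch past it was thus not searched, and the search cannot say whether they have a stem-loop.

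Promoters were read from RefSeq on GRCh38.p14, 250 bases before and 50 after each start, and 66 of the 71 genes had one. Of these, 84.8% held CCAAT on either strand, against 35.7% of 27305 promoters of the same length. The H1, H2A, H2B and H3 promoters all held it, and 3 of 13 H4 promoters did. The octamer ATTTGCAT was found in 39.4% against 1.80%, in 11 of 16 H2A and 14 of 18 H2B promoters and in none of H1 and H4. It was also found in 1 of 13 H3 windows, that of HIST1H3D, which is the same stretch as the window of HIST1H2AD and so counts a single match again. TATAAA was found in 66.7% against 12.0%, with 50% to 76.9% by class. The windows of H2A and H2B genes that start close together on opposite strands also overlap largely, as for HIST1H2AG and HIST1H2BJ. A match to any of the motifs can then count for both genes, so the shares are not over separate stretches. These are letter matches, which can overlap, and not measured binding sites.

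Upstream sequences of 3 members on which the results turn follow, 5′ to 3′, with matches to CCAAT, ATTTGCAT and TATAAA on either strand in capitals. Starts are those of RefSeq, which can differ from the deposited ones. The first lies between the RefSeq starts of HIST3H2A and HIST3H2BB, a divergent pair with counts in HGC-27 and none in AGS (GRCh38.p14, chr1:228457874-228458102, plus strand). It holds 3 CCAAT matches and neither of the other motifs. The second is the 250 bases before HIST1H2BK, the member with the most counts (chr6:27146859-27147108, minus strand), with 6 CCAAT matches, 1 octamer and 3 TATAAA matches.
HIST3H2A-HIST3H2BB: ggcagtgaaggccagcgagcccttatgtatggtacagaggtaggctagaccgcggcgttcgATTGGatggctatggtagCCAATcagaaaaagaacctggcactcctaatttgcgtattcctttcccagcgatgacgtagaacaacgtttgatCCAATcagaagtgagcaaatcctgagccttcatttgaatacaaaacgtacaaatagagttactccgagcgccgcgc
HIST1H2BK: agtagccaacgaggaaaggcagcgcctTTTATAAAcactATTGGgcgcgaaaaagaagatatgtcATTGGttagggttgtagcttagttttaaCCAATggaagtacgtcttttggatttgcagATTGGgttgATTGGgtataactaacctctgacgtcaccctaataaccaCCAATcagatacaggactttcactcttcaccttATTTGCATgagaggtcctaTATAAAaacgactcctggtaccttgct

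Counts were low. The libraries summed to 24597379 to 28734374 counts, of which the 71 genes took 1525 (control) and 1536 (estradiol) in AGS and 2017 (control) and 1641 (estradiol) in HGC-27, or 0.0055% to 0.0070%. On library sizes scaled by the trimmed mean of M-values (TMM) this was 58.7, 55.6, 69.7 and 65.7 CPM, counts scaled to a common library size. Of the 71 genes, 59 had a count in some library, 12 were at 0 in all, and 24 passed the filter on low counts and were tested. For 19 of the 71, 50% or more of the 31-base stretches of the transcript also occur in other genes, and 2 of these 19 were tested. Reads of such genes could have been split or lost, so a count of 0 or near 0 need not mean that the message was absent. A count of 3, the limit that a count of 0 allows, corresponded to 0.104 to 0.12 CPM per library. Counts were also concentrated: HIST1H2BK alone held 21.7% of them, the 5 highest members 53.5% and the 10 highest 74.1%. The line labels matched most of their markers. EPCAM stood at 13601 and 13659 counts in AGS and at 10 and 8 in HGC-27. VIM stood at 54 and 53 against 39235 and 34138. CDH2, listed with VIM as a mesenchymal marker, lay the other way at few counts: 5 and 11 in AGS, 4 and 0 in HGC-27. The markers of leukocytes, endothelium and red cells had 0 to 22 counts each.

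Which part of a member the table could count differed. For 33 members the annotation held the coding part only. They had a median of 0.073 CPM per kilobase, and 3 of the 33 averaged 10 counts or more. Of 34 members whose annotated transcript ran over 100 bases beyond the coding part, 21 averaged 10 counts or more, and these 34 held 66.5% of the counts. Single-exon members running over 100 bases past the stem-loop had a median of 0.551 CPM per kilobase over 12 genes, spliced members 0.357 over 13, and those ending within 100 bases of the stem-loop 0.413 over 8. The members with counts were thus mostly those annotated well beyond the coding part, though the highest of all, HIST1H2BK, was annotated for its coding part only. This is a comparison over genes of unequal annotated length and unequal sharing of sequence with other genes, and is a description with no test.

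**Figure D1:**
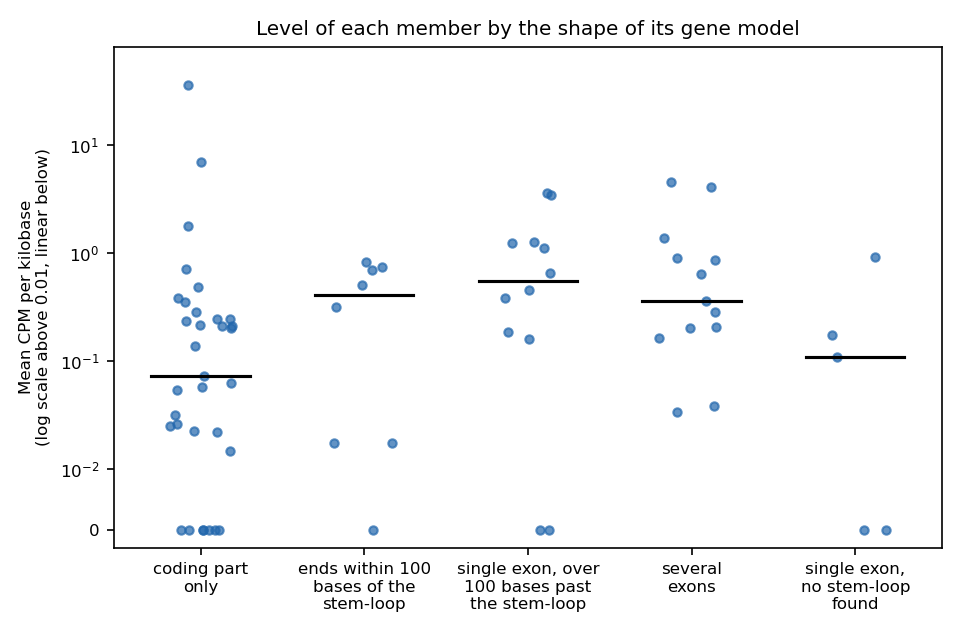
Mean level of each of the 71 clustered histone genes over the 4 libraries in CPM per kilobase (vertical axis, logarithmic above 0.01 and linear below), by the shape of its annotated transcript; each point is a gene and the bar is the median. Genes annotated for the coding part only have the lowest median (0.073) and also the highest single gene, HIST1H2BK.

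By class, H2B held 48.7% of the members' counts, H2A 21.9%, H4 12.7%, H3 9.09% and H1 7.68%. H2B summed to 752 and 794 counts in AGS control and estradiol and to 960 and 765 in HGC-27 control and estradiol. H2A summed in the same order to 354, 333, 453 and 330, H4 to 191, 175, 252 and 233, H3 to 131, 137, 167 and 176, and H1 to 97, 97, 185 and 137. In CPM the HGC-27 sums lay above the AGS sum of the same condition in every class. For H2A and H2B these sums include 2 genes at 0 in AGS. In HGC-27 control and estradiol, HIST3H2A gave 182 and 152 of the H2A counts and HIST3H2BB 68 and 48 of the H2B counts. These sums depend on how many members of a class are annotated and counted, so they are not amounts of histone message in the cell.

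**Figure D2:**
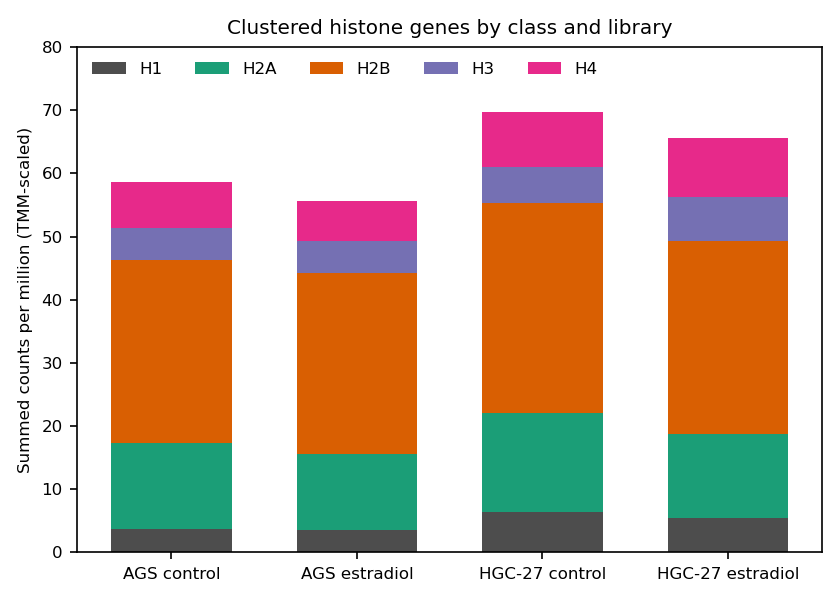
Summed TMM-scaled CPM of the clustered histone genes in each library, stacked by histone class; the total bar heights are 58.7, 55.6, 69.7 and 65.7 CPM. H2B is the largest block in all 4 libraries, and both HGC-27 bars stand above both AGS bars.

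Within H2B, the class whose proteins pair with H2A, HIST1H2BK had 329 (control) and 340 (estradiol) counts in AGS against 450 (control) and 342 (estradiol) in HGC-27. Its mean level of 35.6 CPM per kilobase was the highest of any member. Of the 31-base stretches of its transcript, 86.3% also occur in other genes, 74.4% in H2BFS alone, so its reads could have been split or lost. H2BFS itself had at most 1 count in any library. HIST1H2BD followed with 105, 111, 122 and 88 counts in the same order of libraries (4.53 CPM per kilobase), and HIST1H2BC with 27, 28, 39 and 30 (1.38). For HIST1H2BD the ranges of the lines overlapped, and for the other two both AGS counts lay just under those of HGC-27. HIST1H2BH had 85, 96, 55 and 45 counts (1.27 CPM per kilobase), and here both AGS libraries were the higher ones.

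H2A was led by HIST1H2AC, with 278, 249, 112 and 86 counts and a mean of 4.05 CPM per kilobase. HIST3H2A had 0, 0, 182 and 152 counts (3.46 CPM per kilobase), all of them in HGC-27. HIST2H2AC had 18, 19, 23 and 15 counts (1.78) and HIST1H2AG 42, 29, 100 and 52 (0.911). The class thus held a gene higher in AGS, a gene seen in HGC-27 alone and genes with other patterns.

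The H4 counts lay mostly in HIST1H4I, with 120, 113, 127 and 136 counts (3.58 CPM per kilobase), a level that was similar in all libraries. It held 58.3% of the H4 counts. HIST1H4H had 23, 19, 51 and 54 counts (0.635), with no overlap between the lines. HIST1H4K and HIST1H4D stayed at 7 counts or fewer in every library.

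Of the H3 genes, HIST1H3H had 53, 28, 31 and 34 counts (1.11 CPM per kilobase) and HIST1H3E 43, 43, 94 and 81 (0.905). HIST1H3G had 16, 53, 7 and 24 (0.387), the higher count in each line being that of the estradiol library. HIST3H3, which lies in the same cluster as HIST3H2A, had 7, 3, 7 and 9.

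Linker histone H1 was 1 gene for practical purposes: HIST1H1C, with 90, 94, 170 and 130 counts and 6.99 CPM per kilobase, held 93.8% of the H1 counts. HIST1H1B, HIST1H1E and HIST1H1D had 8 counts or fewer in every library. HIST1H1T, a gene known from testis, was at 0 in all 4, as were HIST1H2AA and HIST1H2BA; these 3 were named after their values were seen.

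**Figure D3:**
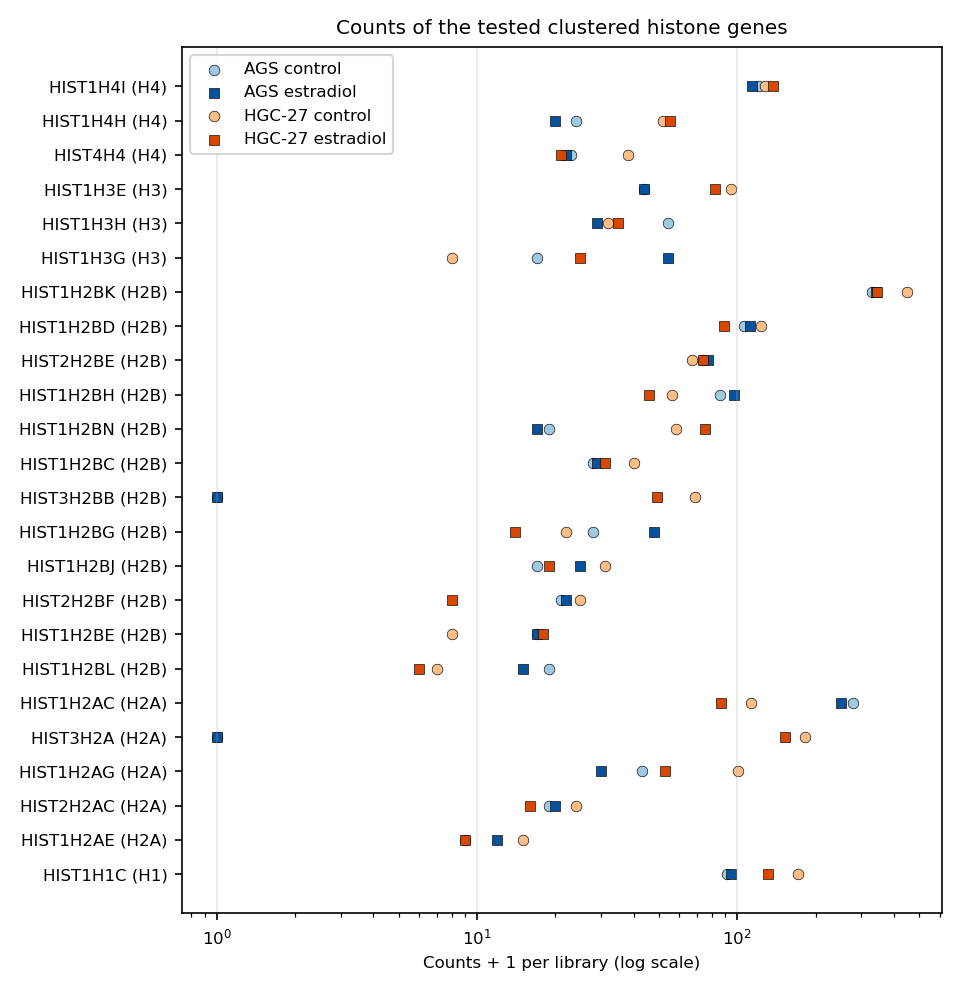
Counts plus 1 on a logarithmic axis for the 24 tested clustered histone genes, 1 point per library (light blue circle AGS control, dark blue square AGS estradiol, light orange circle HGC-27 control, dark orange square HGC-27 estradiol). HIST3H2A and HIST3H2BB sit at 0 counts in both AGS libraries, and most other genes lie between 5 and 450 counts.

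The lines were compared in a model of line plus treatment (edgeR's quasi-likelihood test, adjusted over all 18278 tested genes), with a control and an estradiol library standing for each line. Of the 24 tested histone genes, 12 (50%) differed, 5 higher in AGS (20.8%) and 7 higher in HGC-27 (29.2%). The background was large: 77.2% of all tested genes differed, 35.7% higher in AGS and 41.5% higher in HGC-27. The members' share was below it. Low counts make such differences harder to detect, and 79.2% of the tested members averaged under 100 counts against 34.6% of all tested genes. Among genes under 100 counts the shares called were 10 of 19 members (52.6%) and 63.6% of all. The median difference, AGS minus HGC-27 on the log2 scale, was -0.18 over the 24 members and -0.10 over all tested genes.

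The lines differed most at the HIST3 cluster on chromosome 1. HIST3H2A (chr1:228456979-228457873, minus strand, 1 exon) had at least 55.2-fold higher CPM in HGC-27 than the floor of 3 counts per library in AGS (adjusted p = 2.68e-37, edgeR). HIST3H2BB (chr1:228458107-228460470, plus strand, 1 exon) had 0, 0, 68 and 48 counts, at least 19.1-fold higher in HGC-27 (adjusted p = 5.02e-15, edgeR). Both are thus undetected in AGS at this depth and present in both HGC-27 libraries. Between the starts of the pair as deposited lie 233 bases, most of them in the sequence shown above. Their transcripts share little sequence with other genes: 4.39% of the 31-base stretches of HIST3H2A and 22.7% of those of HIST3H2BB.

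Protein-coding genes around the pair were counted in both lines. TRIM11, a ubiquitin ligase gene, had 1244, 1359, 1168 and 959 counts, and RNF187 had 2502, 2553, 5721 and 5178. HIST3H3, the third gene of the cluster, had the few counts given above in both lines. These neighbours lie within 100 kilobases and were listed after the HIST3 values were seen. The 0 counts in AGS did not extend to any of the 4 protein-coding neighbours named here, TRIM17 included (47, 59, 144 and 149 counts). The pseudogene HIST3H2BA (chr1:228464103-228464626) had 0, 0, 1 and 4 counts, and so was at 0 in AGS too, at few counts in HGC-27.

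The stem-loop of HIST3H2A ends 390 bases and that of HIST3H2BB 1917 bases before the end of the annotated transcript (chr1:228457369-228457384 and chr1:228458538-228458553). Both have the commonest form, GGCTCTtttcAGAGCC. Reads of either gene could therefore come from messages of either ending, which gene counts cannot tell apart.

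On chromosome 6, HIST1H2AC (chr6:26124145-26139116) was higher in AGS by 1.43 ± 0.19 on the log2 scale (SE, adjusted p = 1.14e-12, edgeR). HIST1H2BH was higher in AGS by 0.86 ± 0.30 and HIST1H2BG, with 27, 47, 21 and 13 counts, by 1.10 ± 0.50 (adjusted p = 0.0064 and 0.0383, edgeR). HIST1H3G was higher in AGS by 1.11 ± 0.53 (adjusted p = 0.0477, edgeR). The fifth, HIST1H2BL, had 18, 14, 6 and 5 counts and a difference of 1.53 ± 0.73 (adjusted p = 0.0467, edgeR); its mean count was under the minimum for named genes and it is named because few passed.

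The calls of HIST1H3G, HIST1H2BG and HIST1H2BL, the weakest of the 5, each depended on the libraries used. A fit to 3 libraries also had to drop the treatment term, and the line with 1 library was assumed to vary like the other. In such fits HIST1H3G did not pass without the AGS estradiol library (0.08; adjusted p = 0.92, edgeR) or the HGC-27 control library (0.40; adjusted p = 0.538). Its difference within the control libraries was 1.29 (95% counting interval -0.01 to 2.87) and within the estradiol libraries 0.98 (0.28 to 1.76), so these drops include the loss of the treatment term. HIST1H2BG did not pass without the AGS estradiol library (0.73; adjusted p = 0.225, edgeR) or the HGC-27 estradiol library (0.91; adjusted p = 0.153). Within the control libraries it differed by 0.51 (-0.36 to 1.41) and within the estradiol libraries by 1.67 (0.80 to 2.72). HIST1H2BL passed in 1 of the 4 such fits, the one without the AGS estradiol library, and otherwise had adjusted p = 0.151 to 0.199 (edgeR), with differences of 1.31 to 1.55.

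Besides the HIST3 pair, 5 genes were higher in HGC-27. HIST1H2BN had 18, 16, 57 and 74 counts, a difference of -1.93 ± 0.42 with an adjusted p of 9.86e-06 (edgeR). Its exons overlap those of HIST1H2AL and HIST1H2AK, which averaged at most 2.25 counts. HIST1H4H differed by -1.31 ± 0.43, HIST1H2AG by -1.05 ± 0.35, HIST1H3E by -1.01 ± 0.32 and HIST1H1C by -0.69 ± 0.23 (adjusted p up to 0.0042 for these 4, edgeR). HIST1H2AG did not pass without the HGC-27 control library in a fit that also lacked the treatment term (-0.65; adjusted p = 0.197, edgeR). Its difference was -1.09 within the control libraries (-1.65 to -0.56) and -0.98 within the estradiol libraries (-1.70 to -0.31). With DESeq2 in place of edgeR, 4 of the 24 members differed rather than 12: HIST1H2AC, HIST3H2A, HIST3H2BB and HIST1H2BN. Over all genes DESeq2 called 12532, against 14106 with edgeR.

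The 2 highest members by count other than HIST1H2AC did not pass the threshold. HIST1H2BK differed by -0.23 ± 0.13 (adjusted p = 0.098, edgeR) and HIST1H4I by -0.17 ± 0.22 (adjusted p = 0.493, edgeR).

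**Figure D4:**
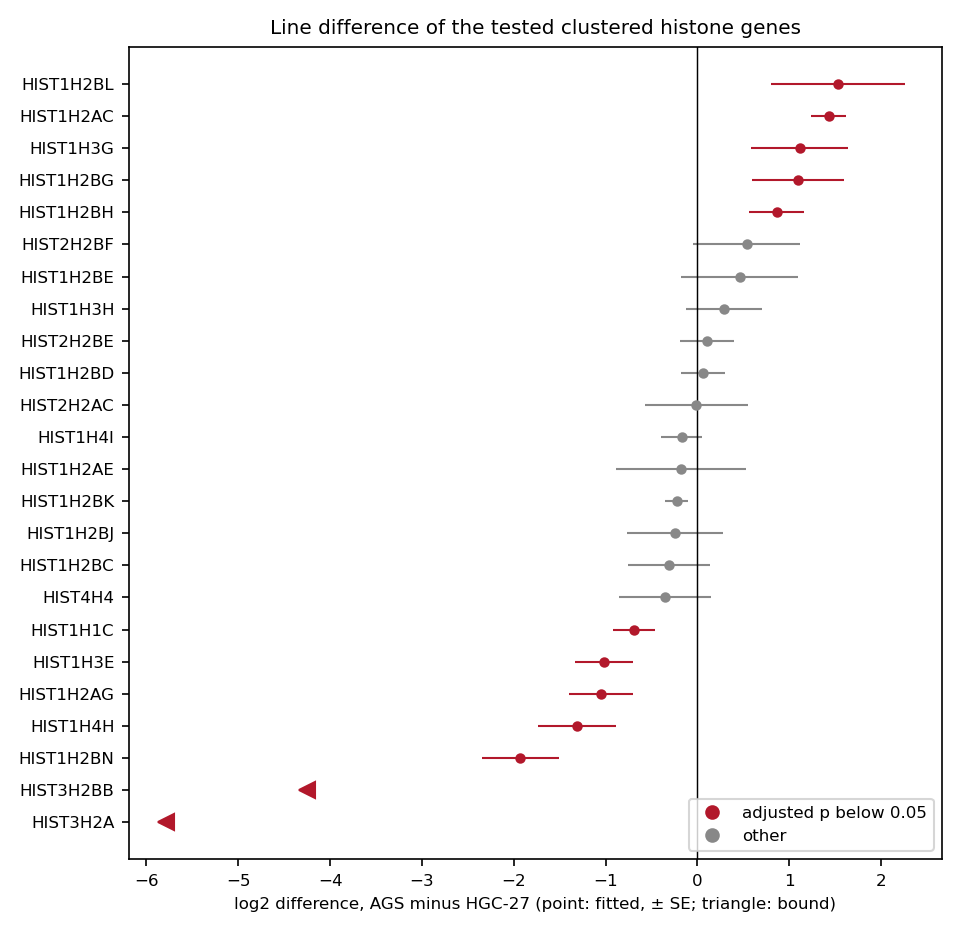
Difference between the lines (AGS minus HGC-27, log2) for the 24 tested clustered histone genes, with the standard error as a bar; red marks an adjusted p below 0.05 and triangles mark bounds for genes at 0 in AGS. Of the 12 called genes, 5 lie to the right of 0 and 7 to the left, with HIST3H2A and HIST3H2BB farthest left.

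Many clustered H2A and H2B genes stand head to head and share the bases between their starts. There were 12 head-to-head pairs of members, 11 of them an H2A with an H2B gene, with 218 to 356 bases between the starts. In 5 pairs both genes were tested. HIST3H2A and HIST3H2BB were both at 0 in AGS. HIST2H2BE and HIST2H2AC differed between the lines by 0.10 and -0.01, neither past the threshold. In the other 3 pairs 1 gene was called and its partner was not: HIST1H2AC 1.43 beside HIST1H2BC -0.31, HIST1H2AG -1.05 beside HIST1H2BJ -0.24, and HIST1H2BG 1.10 beside HIST1H2AE -0.18. Whether partners differ from each other was not tested. The partner of HIST1H2BK, HIST1H2AH, had 0, 2, 3 and 1 counts.

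With estradiol, no clustered histone gene passed the threshold in the model over both lines: 0 of 24 were called higher and 0 lower (edgeR's quasi-likelihood test). Over all tested genes 0.115% were called higher and 0.0383% lower, 0.153% in all, so the members' count of 0 lies near the background. DESeq2 and limma-voom called 0 members, and 0 of all genes. At an unadjusted p under 0.05 there were 2 of 24 members (8.33%) and 593 of all tested genes (3.24%). The standard errors of the estradiol change ran from 0.13 for HIST1H2BK to 0.72 for HIST1H2BL on the log2 scale, which limits the size of change that could be detected.

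HIST1H3G, an H3.1 gene, had the smallest p. Its counts were 16 in AGS control and 53 in AGS estradiol, and 7 and 24 in the HGC-27 pair. The change was 1.77 ± 0.54 on the log2 scale (SE), with the estradiol library the higher one in 2 of 2 lines, and did not pass (adjusted p = 0.352, edgeR; 0.306 to 1.00 over the alternatives). Within AGS the log2 ratio was 1.61, with a 95% counting interval of 0.81 to 2.55, and within HGC-27 it was 1.92, from 0.73 to 3.45. Its transcript shares 0.42% of its 31-base stretches with other genes and overlaps no other exon. Its stem-loop, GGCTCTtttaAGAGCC (chr6:26270923-26270938, minus strand), ends 1518 bases before the end of the transcript.

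HIST1H2AG, the other gene under an unadjusted p of 0.05, lay in the opposite direction without passing. Its 42, 29, 100 and 52 counts gave a change of -0.68 ± 0.35 (adjusted p = 1.00, edgeR). The interval was -1.36 to 0.09 within AGS and -1.24 to -0.24 within HGC-27.

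Within a line there was 1 library per condition, so no test was possible and the intervals cover counting error only. In AGS, the interval lay above 0 for 1 of 24 members (HIST1H3G) and below 0 for 1 (HIST1H3H); over all tested genes these shares were 11% and 11.8%. HIST1H3H had 53 counts in AGS control and 28 in AGS estradiol, a ratio of -0.997 (-1.72 to -0.32), and 31 and 34 in HGC-27, a ratio of 0.34 (-0.40 to 1.09). In HGC-27, the interval lay above 0 for 3 (HIST1H3G, HIST1H2BN and HIST1H2BE) and below 0 for 2 (HIST1H2AG and HIST2H2BF), against 9.53% and 10.6% of all tested genes. HIST2H2BF had 24 and 7 counts there, and HIST1H2BE 7 and 17; both are named because few passed. In the other line their counts were level, 20 and 21 for HIST2H2BF and 16 and 16 for HIST1H2BE. These shares were near or below the background in both lines. Members had fewer counts than most genes, with 79.2% under a mean of 100 against 34.6% of all tested genes. Their intervals were thus wider and less able to exclude 0, so the shares are not a like comparison.

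Among members averaging 50 counts or more in a line, most ratios were within counting error. In AGS they lay lowest for HIST1H2AC (-0.25) and HIST1H4I (-0.18) and highest for HIST1H2BH (0.09). In HGC-27 they lay lowest for HIST1H2AG (-0.73), HIST3H2BB (-0.29) and HIST1H2BD (-0.26), and highest for HIST1H2BN (0.58) and HIST2H2BE (0.36). The intervals of all but HIST1H2AG and HIST1H2BN included 0. HIST3H2A, with 182 and 152 counts, had a ratio of -0.05.

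More members lay below 0 than above. The change was below 0 in 16 of 24 members in the model over both lines (66.7% against 50.3% of all tested genes), in 17 of the 22 with counts in AGS (77.3% against 51.1%) and in 17 of 24 in HGC-27 (70.8% against 49.7%). The median change was -0.11 over the members and -0.0007 over all tested genes, and within the lines it was -0.04 in AGS and -0.17 in HGC-27. Those below 0 in AGS include HIST1H3E (43 and 43 counts) and HIST1H2BE (16 and 16), at -0.09 each through library size alone. No single member of this majority passed the test, and these counts have no test of their own.

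The sum of all 71 genes gave a ratio of -0.08 in AGS (interval -0.18 to 0.02) and of -0.09 in HGC-27 (-0.18 to 0.01) on the log2 scale. Of the class sums, only that of H2A in HGC-27 had an interval that excluded 0, at -0.25 (-0.46 to -0.04). The AGS ratio of H2A was -0.18 (-0.40 to 0.04), and its interval also excluded 0 without members averaging under 10 counts (-0.26, -0.48 to -0.03) and without members that share most of their sequence (-0.27, -0.50 to -0.03). Without HIST1H2AC it was 0.055 (-0.41 to 0.52). H2B gave -0.01 (-0.16 to 0.14) and -0.12 (-0.26 to 0.02) in AGS and HGC-27, H1 -0.09 (-0.51 to 0.33) and -0.22 (-0.55 to 0.10), H3 -0.02 (-0.38 to 0.33) and 0.29 (-0.03 to 0.60), and H4 -0.21 (-0.52 to 0.09) and 0.10 (-0.17 to 0.36).

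**Figure D5:**
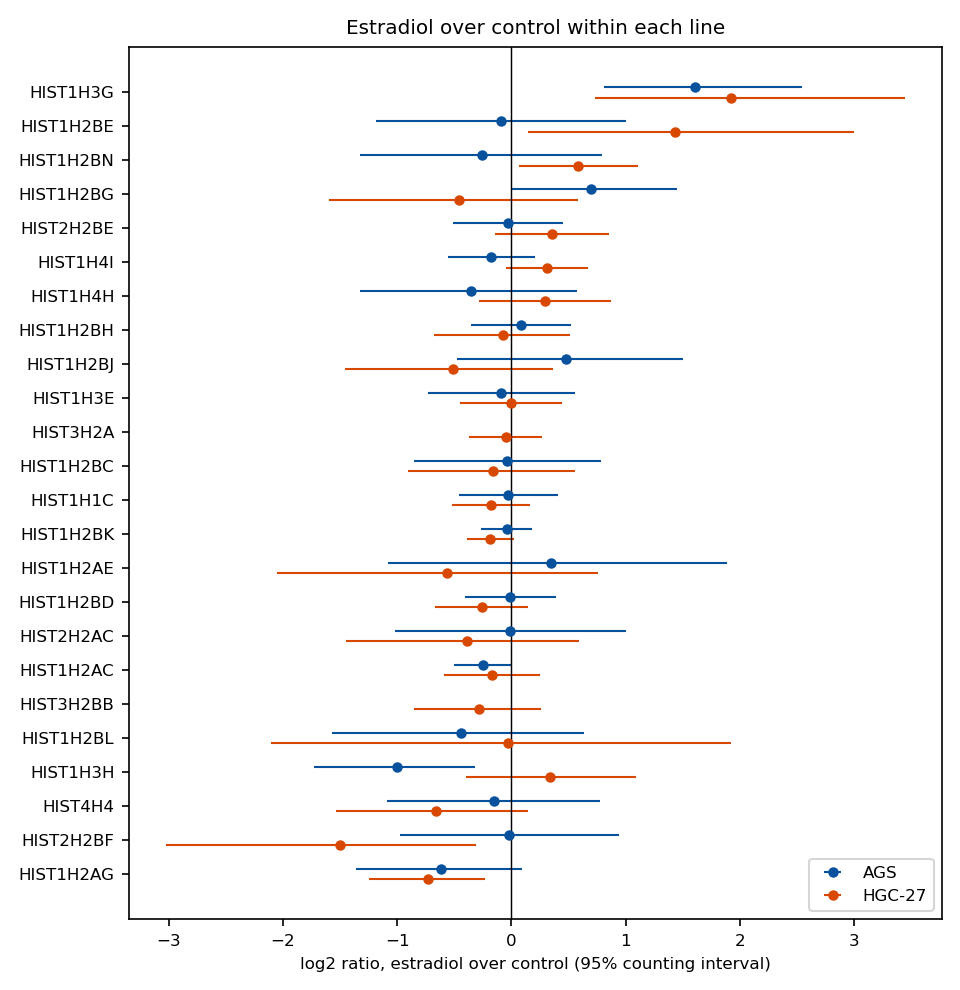
Log2 ratio of estradiol over control within AGS (blue) and HGC-27 (orange) for the tested clustered histone genes, with the 95% counting interval as a bar. HIST1H3G lies above 0 in both lines (1.61 and 1.92) and most other intervals include 0; HIST3H2A and HIST3H2BB have no AGS ratio because they had no counts there.

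Between the lines, the sum of all members gave a log2 difference (AGS minus HGC-27) of -0.24, with -0.25 in the control and -0.24 in the estradiol libraries. The sums averaged 57.1 CPM in AGS and 67.7 CPM in HGC-27. Of the HGC-27 sum, HIST3H2A made up 6.19 CPM and HIST3H2BB 2.14 CPM, and both were at 0 in AGS. The class differences were -0.71 for H1, -0.40 for H4, -0.36 for H3, -0.17 for H2A and -0.15 for H2B, with no test of the sums. Single members set several of these. Without HIST1H2AC the H2A difference was -1.85, and without HIST1H3E that of H3 was 0.10. The -1.85 still includes HIST3H2A, at 0 in AGS. That gene held 182 of the 453 H2A counts in HGC-27 control and 152 of the 330 in HGC-27 estradiol.

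The machinery that makes and processes histone messages was read at higher counts than most of its targets. In all lists that follow, no gene was under an unadjusted p of 0.05 with estradiol (0 in edgeR), and DESeq2 and limma-voom called none. Between the lines, the lists' counts stand beside the 35.7% of all tested genes higher in AGS and the 41.5% higher in HGC-27. Of 15 genes for histone transcription and 3′ processing, 0 were called with estradiol (edgeR; median change -0.03), and the 2 largest changes were -0.20 for HINFP, a histone H4 transcription factor, and 0.11 for NPAT, the coactivator of the clustered genes. SLBP, the stem-loop binding protein, had 2932, 3166, 3480 and 2832 counts. Between the lines 6 of the 15 were higher in AGS and 4 in HGC-27. The largest differences were those of ZNF473, a U7 processing factor (1.69 ± 0.09), SYMPK, the scaffold of the cleavage complex (1.15 ± 0.06), LSM10, a U7 ring subunit (-0.92 ± 0.10), and CSTF2, a cleavage factor (-0.68 ± 0.07).

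Most histone variant genes outside the clusters are expressed through the cell cycle and give polyadenylated messages. Of 15 such genes 11 were tested, and 0 were called with estradiol (edgeR; median change -0.02). Between the lines 6 were higher in AGS and 3 in HGC-27. H2AFJ, a variant of H2A, had 1218, 1160, 0 and 0 counts in the same order of libraries, at least 397-fold higher in AGS (adjusted p = 1.37e-137, edgeR). The lines thus differed in opposite directions at HIST3H2A and H2AFJ, each of which was undetected in 1 line. H2AFJ (chr12:14774383-14778002) lies 3251 bases from HIST4H4, a clustered gene with 22, 21, 37 and 20 counts that did not differ between the lines (-0.35 ± 0.50; adjusted p = 0.528, edgeR). H2AFY, for macroH2A, was higher in AGS by 1.06 ± 0.05 and H2AFX by 0.69 ± 0.07, and H3F3A, for H3.3, differed by -0.46 ± 0.05.

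Because the clustered genes are normally read in S phase, S phase genes are given beside them. Of 20, 0 were called with estradiol (edgeR; median change -0.01). Within HGC-27 the counting interval lay below 0 for 9 of the 20 and above 0 for 0, and within AGS above 0 for 6 and below 0 for 1. Over all tested genes, many of them with fewer counts and wider intervals, these shares were 10.6% and 9.53% in HGC-27 and 11% and 11.8% in AGS. Some other lists lay the same way in part. The interval was below 0 in HGC-27 for 6 of the 15 histone message genes, with SLBP counted in both lists. It was above 0 in AGS for 5 of 12 G2 and M phase genes, which had 1 above and 2 below in HGC-27. The chaperone genes had 3 above and 0 below in AGS, and 1 above and 4 below in HGC-27. The variants outside the clusters had 1 above and 2 below in each line. The summed histone ratios stood at -0.08 and -0.09 in AGS and HGC-27; the part of the S phase genes in it was not tested. Between the lines 13 of 20 S phase genes were higher in HGC-27 and 4 in AGS (median -0.45, against -0.10 over all tested genes), among them TYMS, for thymidylate synthesis (-1.64 ± 0.06), PRIM1, a primase subunit (-1.61 ± 0.07), and MCM7, of the replicative helicase (-1.51 ± 0.05). CCNE1, the cyclin of S phase entry, was higher in AGS (1.45 ± 0.09). The G2 and M phase list had 0 of 12 called with estradiol (edgeR), and 7 were higher in AGS and 4 in HGC-27 (median 0.17), led by MKI67 (1.13 ± 0.05) and AURKA (1.10 ± 0.06).

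Chaperones carry newly made histones to DNA. Of 16 such genes 0 were called with estradiol (edgeR; median change -0.01), and 7 were higher in AGS and 7 in HGC-27. ASF1B, which hands H3 and H4 to the assembly factors during replication, differed by -1.70 ± 0.07 (higher in HGC-27), and ATRX, which places H3.3, by -1.21 ± 0.05. NAP1L1, a chaperone of H2A and H2B, differed by -1.03 ± 0.05 and CHAF1A, of chromatin assembly factor 1, by -0.65 ± 0.06.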

How the data were processed

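RNA was sequenced in 4 libraries; the deposited values are raw counts, with no scaling. The authors aligned reads with HISAT2 and counted them with featureCounts, per the submitters' processing notes; versions, strand and the treatment of reads matching several places are not given in the sources used here. Those notes name hg18, but the positions of all 71 members equal GENCODE 29 on GRCh38.

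The fit used edgeR 4.0.16 (R 4.3.3): TMM scaling, filterByExpr (18278 genes), a quasi-likelihood F-test of line plus treatment, and Benjamini-Hochberg adjustment at 0.05. There was 1 residual degree of freedom, prior degrees of freedom were 396.9, and the coefficient of variation was 4.59%. Standard errors came from the change and its F statistic. DESeq2 1.42.0 and limma 3.58.1 (voom) were alternatives. Within a line, the log2 ratio used a prior of 0.5 counts and an exact conditional binomial interval of 95%; reads carry no molecular identifiers, so intervals and limits from 3 counts cover counting error only. The steps were tested on simulated data.

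The number in the library name pairs libraries by line: log2 levels correlated at 0.997 within each line and at 0.78 and 0.777 between lines. Line is therefore the block of the estradiol comparison, and treatment a term of the line comparison.

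Named were, per class, up to 4 members with the highest CPM per kilobase; line differences past the threshold, up to 6 per direction, at a mean of 20 counts or more; the 4 highest and lowest ratios within a line at 50 counts or more; and the largest changes of each list. Members, lists and tests were chosen with earlier results of these data known. Protein sequences were not used here, and 1 gene near the HIST3 cluster is not reported here.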

Additional observations from a re-analysis of the deposited data

How the results depend on the processing

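With estradiol, 28 genes passed over all tested genes, and 0 with DESeq2, 0 with limma-voom and 0 without the line as a replicate block; with the block or without it, 0 clustered histone genes passed. Leaving out a library kept no residual degree of freedom for that comparison, so no count could be given. Of the 12 members that differed between the lines, DESeq2 called 4, and the count was 9 to 11 when 1 library was left out together with the treatment term, the line with 1 library being assumed to vary like the other. The summed difference between the lines (-0.24) was -0.28 on unscaled totals and -0.23 with other size factors. It was -0.25 without members that share most of their sequence, a setting chosen after seeing the data. No setting left out the pair HIST3H2A and HIST3H2BB, so how far the difference rests on that pair was not tested. Without the highest member, the H1 sum gave -1.19 in AGS, -0.84 in HGC-27 and -1.08 between the lines. The H1 genes then left had 8 counts or fewer each in every library, so these H1 values lie near the floor. Also without the highest member, the H2A sum gave 0.055 in AGS and -1.85 between the lines, with HIST3H2A still in it. The H3 sum gave 0.10 and the H4 sum -0.72 between the lines. The line calls of HIST1H3G and HIST1H2BL were also lost without the filter on low counts (adjusted p = 0.0525 and 0.13, edgeR), that of HIST1H3G without the treatment term (adjusted p = 0.0794, edgeR), and that of HIST1H2BG in limma-voom (adjusted p = 0.0524). Apart from these sums, causes were not tested. Depth limits the rest: 47 members were too low to test.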

Other observations

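Some members too low to be tested had uneven counts, named here after their values were seen. HIST1H2AI had 4 counts in AGS control and 19 in AGS estradiol, and 8 and 7 in HGC-27. HIST1H4J had 6 counts in AGS control and 7 in HGC-27 control and 0 in both estradiol libraries, and HIST1H2BF had 9 and 2 in AGS and 8 and 2 in HGC-27.

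Rows with clustered histone names that are not protein coding numbered 19, and HIST2H2BC had the most counts among them (15, 15, 35 and 24 in AGS control, AGS estradiol, HGC-27 control and HGC-27 estradiol). RNAs that carry no poly(A) tail were read beside the histone genes: RN7SL1, RN7SK, RMRP and RPPH1 had 0 counts in all 4 libraries, and SCARNA10 had 1 count in 1 library. RMRP has overlapping rows, and how reads matching several rows or places were treated is not given. A count of 0 here therefore need not mean that the RNA was absent.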
